A study of Sus scrofa with 6 samples.

Results

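Microglia marker genes were followed in bulk RNA of cortex from 6 male pigs, all 140 days old. The 3 control animals were wildtype, the other 3 had a UBE3A maternal deletion, and each animal gave 1 library of polyadenylated RNA. The marker set named 34 genes, chosen by symbol, and 31 of the 28965 genes in each library's table carried one of those symbols. TMEM119, SELPLG and CD74 were not matched by symbol and were skipped. Read counts are of reads assigned to exons, and levels are CPM, read counts scaled to library size with TMM, unless TPM (per length of transcript) is named, with mean ± SD over n = 3 animals per group. A difference is a log2 fold change, positive where deletion animals were higher, with a standard error (SE) and a 95% interval.

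Microglia are the resident macrophages of the brain. They depend on the receptor CSF1R and its ligands IL34 and CSF1, and on the transcription factors SPI1 (PU.1) and IRF8. Their surface receptors read signals from neurons (CX3CR1), released nucleotides (P2RY12) and lipids and debris (TREM2), and they make the C1q chains that start the classical complement pathway and can tag synapses for removal.

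The libraries held between 19796762 and 28126173 exon reads. UBE3A stood between 87.9 and 93.7 CPM in the wildtype animals and between 7.73 and 11.7 CPM in the deletion animals, so each library matched its label. It was the only gene of 14458 tested that passed edgeR's quasi-likelihood test at an adjusted p of 0.05 (adjusted p = 0.000452). The sources used here do not give the part of the gene that was deleted. In bulk tissue, fewer microglia and less marker RNA per cell cannot be told apart.

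Microglial RNA was present in every animal. Of the 31 markers, 29 had enough reads to be tested, with between 4 and 2687 reads per library. HPGDS, a prostaglandin D2 synthase, had 0 reads in all 6 libraries, where 3 reads would correspond to 0.103 to 0.151 CPM per library. CSF3R, the receptor for the granulocyte growth factor G-CSF, had 5 to 14 reads and was below the filter on low counts. Together the 31 markers took 0.0317% to 0.0589% of the reads of a library.

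Per length of transcript, on the authors' TPM scale, VSIR was the highest of the markers matched by symbol. This inhibitory immune checkpoint receptor had a median of 77.6 TPM over the 6 libraries and a range of 55.7 to 92.9 TPM. C1QC followed with a median of 53.0 TPM (32.4 to 91.5) and SPI1 with 42.8 TPM (27.4 to 47.7). CSF1R, C1QB and TYROBP had medians of 25.05, 24.98 and 23.8 TPM. The ranges of neighbours in this order overlapped, so the levels set apart high from low markers rather than each marker from the next. At the low end were the costimulatory ligand CD86 (median 0.382 TPM) and the ADP receptor P2RY13 (0.289 TPM), where single libraries held as few as 10 and 4 reads.

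Across the markers, the animals differed more within each genotype than between genotypes. Of the 29 tested markers 10 had positive and 19 negative log2 fold changes, with a median of -0.16 (0.00 over all 14458 tested genes, of which 49.5% were negative). No marker passed edgeR's test over all genes, for which 0.00692% of tested genes were called. An unadjusted p under 0.05 was found for 2 markers, VSIR and GPNMB, where 7.23% of all tested genes reached it. DESeq2 run after the same low-count filter called 1, VSIR, against 0.176% of the 11932 genes to which it gave an adjusted p. It gave none for 5 of the 29 markers, GPNMB among them. DESeq2 without that filter, a setting chosen after the data were seen, called 0 markers, against 0.0404% of genes. GPNMB had no adjusted p there either.

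The intervals show what 3 animals per group could resolve for these genes. The 95% interval of 27 of the 29 markers included 0, and for 14 it lay within a 2-fold change either way. For 13 markers the interval reached beyond a 2-fold fall and for 5 beyond a 2-fold rise. Only VSIR and GPNMB had intervals that lay wholly on one side of 0.

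**Figure D1:**
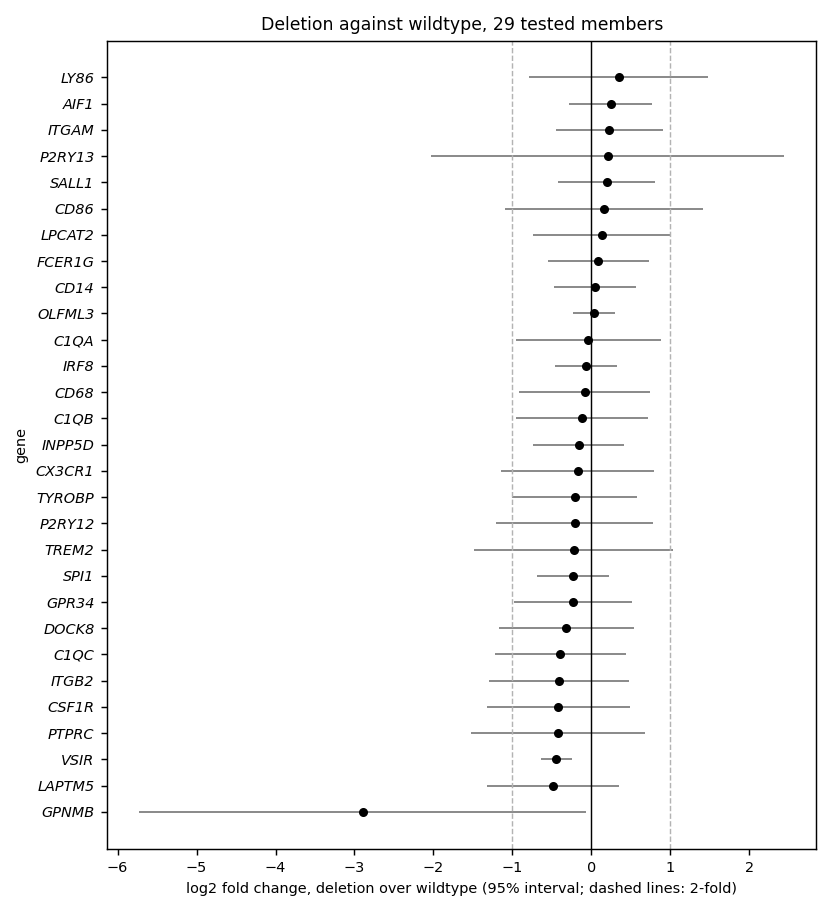
Log2 fold change of deletion over wildtype for the 29 tested microglia markers (horizontal axis, points) with 95% intervals from edgeR (bars), ordered by size, with dashed lines at a 2-fold change. Most intervals cross 0. VSIR has a narrow interval below 0 (-0.64 to -0.24), and that of GPNMB, which rests on 1 wildtype animal, runs from -5.73 to -0.07.

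The main pattern in the markers was a shared order of the animals. Wildtype replicate 2 and deletion replicate 2 were the highest pair of libraries for 20 of the 29 tested markers, an order found in 5.13% of all tested genes. Deletion replicate 1 was lowest for 20 markers, against 18.1% of all tested genes. Both held for 16 markers, 55.2% of them, against 2.01% of all tested genes. The order was chosen after the values were seen and is given as a description, since markers read from the same libraries are not separate observations.

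As a median over the tested markers, wildtype replicate 2 stood at 1.40 times and deletion replicate 2 at 1.36 times each gene's geometric 6-library mean. Deletion replicate 1 stood at 0.655 times that mean, and the remaining 3 libraries lay between 0.909 and 0.959 times it. The deletion group thus held both the lowest library and one of the highest pair.

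**Figure D2:**
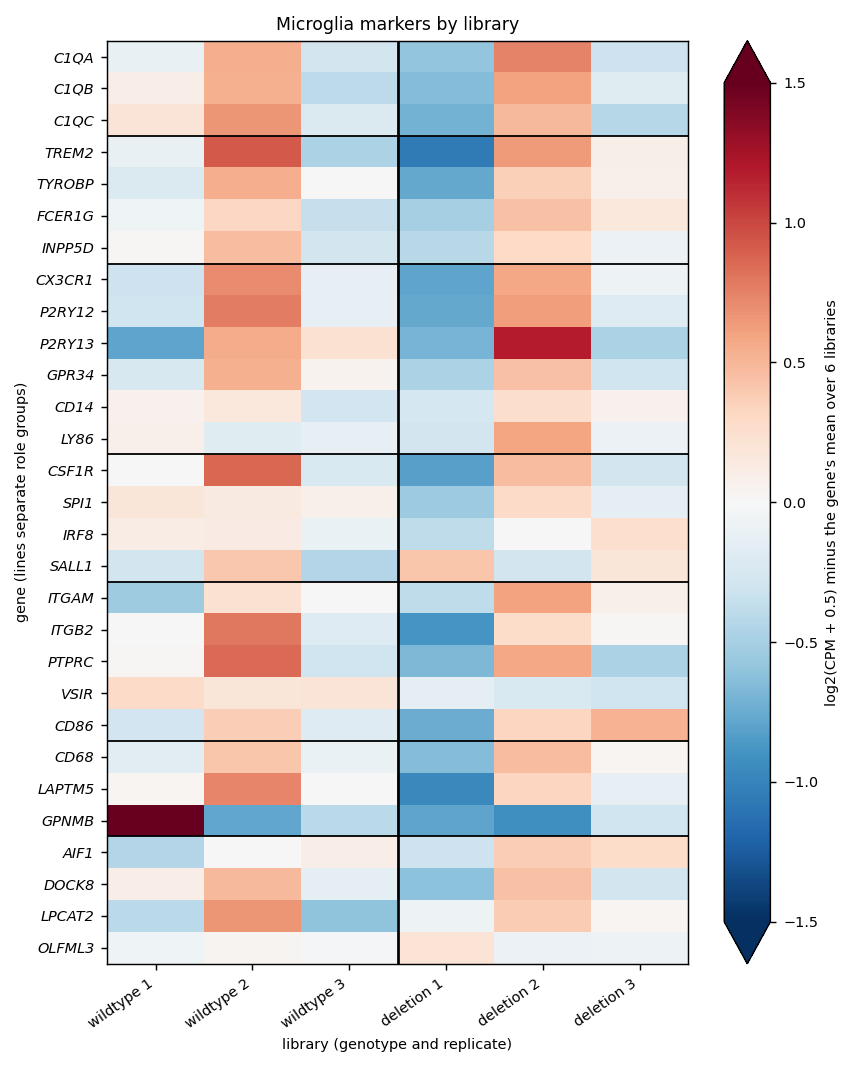
Heat map of the 29 tested markers (rows, grouped by role) in the 6 libraries (columns, wildtype left of the thick line). Colour is log2(CPM + 0.5) minus the gene's own mean over the 6 libraries, clipped at 1.5 either way. Wildtype 2 and deletion 2 are red and deletion 1 is blue for most genes, with SALL1, VSIR, GPNMB and OLFML3 as visible exceptions.

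Summed over the 31 markers, the wildtype libraries held 443, 570.3 and 386 CPM (replicates 1 to 3) and the deletion libraries 315, 502 and 377 CPM. The group means were 466.5 ± 94.4 CPM and 398 ± 95.2 CPM (SD, n = 3 each), a log2 ratio of -0.23, which is smaller than the spread between animals. VSIR and GPNMB, which did not follow the shared order, are part of these sums. Their means were 92.9 and 8.25 CPM in wildtype and 68.4 and 1.11 CPM with the deletion. Animal numbers begin with 14 or 15, which the labels do not explain. In the pair beginning with 14 the sum was 443 CPM in wildtype and 315 CPM in deletion, and in the 4 animals beginning with 15 the groups overlapped.

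Leaving out single animals moved the marker median in both directions. Without wildtype replicate 2 it was 0.15, and without deletion replicate 1 it was 0.08, both above 0. Without deletion replicate 2 it was -0.48, with 26 markers negative and 3 positive. Its sign therefore depended on which single animal was left out.

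The within-group spread of the markers was wide. The coefficient of variation between animals of 1 group, pooled over both groups, had a median of 36.6% over the 29 markers and 12.95% over all tested genes. Counting the reads alone would give a median spread of 6.84% for the markers. The highest library held at least 2 times the CPM of the lowest for 21 markers (72.4%), against 20.9% of all tested genes. All tested genes were taken at any level, and no set matched to the markers in reads was compared.

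The 3 C1q chains, which assemble into 1 complement-initiating molecule and are neighbours in the RefSeq gene order, followed this order of animals closely. C1QA measured 11.3, 18.1 and 10.1 CPM in wildtype replicates 1 to 3 and 7.96, 21.0 and 9.80 CPM in the deletion replicates. C1QB measured 30.3, 41.1 and 21.4 CPM against 17.8, 43.3 and 24.98 CPM. C1QC measured 32.9, 45.7 and 24.5 CPM against 17.3, 40.4 and 21.1 CPM.

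Replicate 2 was the highest of its group for all 3 chains, deletion replicate 1 was the lowest library of all, and the groups overlapped. C1QC had the largest difference, with a log2 fold change of -0.39 (SE 0.35, interval -1.22 to 0.44, edgeR adjusted p = 0.778). Those of C1QB and C1QA were -0.11 and -0.04.

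Within a library the ratio between the chains varied far less than their levels. The C1QB to C1QA ratio of TPM lay between 1.64 and 2.14 in the 6 libraries. The C1QC to C1QB ratio was 2.13, 2.18 and 2.25 in wildtype and 1.91, 1.83 and 1.66 in deletion animals, so that the groups did not overlap. The C1QC to C1QA ratio was 4.56, 3.96 and 3.80 against 3.41, 3.02 and 3.38, again without overlap. An exact two-sided permutation test gave p = 0.1 for both ratios with C1QC and p = 0.6 for C1QB to C1QA. A p of 0.1 is the smallest value that 3 against 3 animals allow. Groups without overlap always give it, so the test adds nothing to that separation. Of all 300 ratios between pairs of 25 markers with at least 20 reads in every library, 24 (8%) had groups that did not overlap, so such a separation is not unusual among them.

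The receptor TREM2 senses lipids and signals through TYROBP, an adaptor with an ITAM motif, and INPP5D (SHIP1) is a phosphatase that dampens this signal. TREM2 measured 5.31, 11.4 and 4.01 CPM in wildtype and 2.51, 9.27 and 6.19 CPM with the deletion. TYROBP measured 4.68, 8.29 and 5.52 CPM against 3.04, 7.20 and 5.86 CPM. Both were highest in wildtype replicate 2 and lowest in deletion replicate 1, and TREM2 spanned 4.54-fold over the 6 libraries. For INPP5D the range was 7.29 to 13.8 CPM and for FCER1G, the Fc receptor gamma chain that is a further ITAM adaptor, 5.98 to 11.97 CPM. The log2 fold changes of the 4 genes were -0.22 for TREM2 (SE 0.54), -0.21 for TYROBP (SE 0.34), -0.16 for INPP5D (SE 0.25) and 0.09 for FCER1G (SE 0.28), and none passed edgeR (adjusted p of 0.881 or higher).

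CX3CR1, the receptor for neuronal fractalkine, and P2RY12, the ADP receptor that guides microglial processes, kept a closer ratio than any other pair of markers compared. P2RY12 measured 8.47, 18.2 and 9.58 CPM in wildtype and 5.98, 16.5 and 9.09 CPM with the deletion. CX3CR1 measured 7.33, 15.4 and 8.38 CPM against 5.10 (deletion replicate 1), 13.99 and 8.72 CPM. Each spanned about 3-fold (3.05 and 3.01), with the same animals high and low. The ratio of CX3CR1 to P2RY12 on the TPM scale was 2.045, 1.99 and 2.07 in wildtype and 2.01, 2.01 and 2.27 in deletion animals. Its coefficient of variation over the 6 libraries was 4.93%, the lowest of the 300 marker pairs, whose median was 25.1%. The log2 fold changes were -0.21 (SE 0.42) for P2RY12 and -0.17 (SE 0.41) for CX3CR1.

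**Figure D3:**
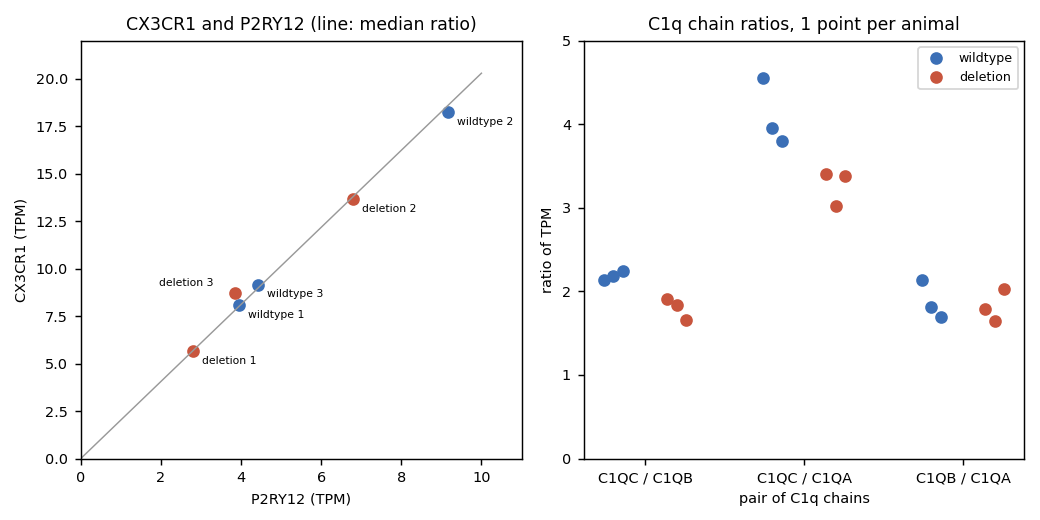
Left, CX3CR1 against P2RY12 in TPM, 1 point per animal, with a line at the median ratio of 2.03. Right, TPM ratios between the C1q chains, 1 point per animal. The left points lie along 1 line although the levels span about 3-fold, and on the right the deletion points lie below the wildtype points for both ratios with C1QC.

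Among the other sensors, the lysophosphatidylserine receptor GPR34 had the same order (3.26 to 7.09 CPM, log2 fold change -0.23, SE 0.33). CD14, a co-receptor for bacterial lipopolysaccharide, varied less, from 3.71 to 5.64 CPM (0.05, SE 0.23). P2RY13 rested on 4, 35 and 17 reads in wildtype and 6, 46 and 7 reads in deletion animals, and LY86 (MD-1), a partner of a Toll-like receptor relative, on 9 to 23 reads. Their intervals, -2.02 to 2.44 for P2RY13 and -0.78 to 1.48 for LY86, include changes of more than 2-fold in either direction for P2RY13 and of more than 2-fold upward for LY86. P2RY12 and P2RY13 lie within MED12L, and GPR34 within the span of CASK, in RefSeq's Sscrofa11.1 annotation. CX3CR1 overlaps a long noncoding RNA gene there. Whether counting used strand is unknown from the sources used here, so reads of such overlapping genes are uncertain.

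CSF1R, the growth factor receptor on which microglia depend, had one of the larger spreads. It measured 51.1, 92.5 and 43.3 CPM in wildtype and 28.7, 70.1 and 41.8 CPM with the deletion (log2 fold change -0.42, SE 0.39, interval -1.32 to 0.49, edgeR adjusted p = 0.785). The transcription factor SPI1 stayed within 24.4 to 26.3 CPM in wildtype and spread from 15.7 to 28.4 CPM with the deletion (-0.23, SE 0.20). IRF8 ranged from 18.4 to 21.5 CPM in wildtype and from 15.0 to 23.6 CPM with the deletion (-0.07, SE 0.17). The factors thus spanned less than 2-fold over the 6 libraries (1.81 and 1.57), where the receptor spanned 3.22-fold.

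SALL1, in mice a transcription factor that maintains microglial identity, did not share the order of the other markers. It measured 16.2, 26.3 and 14.4 CPM in wildtype and 26.6, 16.2 and 22.4 CPM with the deletion, so deletion replicate 1, lowest for most markers, stood level with wildtype replicate 2 at the top here. OLFML3, a secreted protein enriched in mouse microglia, also had its highest value in deletion replicate 1 (38.5 CPM), with 31.2 to 34.3 CPM in the other 5 libraries. The summed level of 9 oligodendrocyte genes was 10290, 20620 and 10110 CPM in wildtype and 23550, 9412 and 18600 CPM with the deletion. Thus the 3 libraries highest for SALL1 were also the highest for oligodendrocyte genes. Their part in the SALL1 values was not tested. OLFML3 overlaps HIPK1 in RefSeq, which measured 41.4 to 72.9 CPM and was also highest in deletion replicate 1.

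Integrins and leukocyte surface genes gave a mixed picture. ITGB2 (CD18), the beta chain of the complement receptor CR3, measured 8.13, 14.5 and 7.07 CPM in wildtype and 4.21, 10.05 and 8.30 CPM with the deletion (log2 fold change -0.41, SE 0.38). Its partner ITGAM (CD11b) measured 7.80, 13.5 and 11.5 CPM against 8.74, 17.8 and 12.1 CPM (0.23, SE 0.29). The chains of this heterodimer therefore had opposite signs, with intervals that both included 0, and the ITGB2 to ITGAM ratio of TPM ranged from 1.22 to 2.73. In RefSeq ITGAM overlaps a long noncoding RNA gene and ITGB2 a pseudogene, so their reads are uncertain as well. The phosphatase PTPRC (CD45) ranged from 1.70 to 5.82 CPM (-0.43, SE 0.48). CD86 rested on 10 to 39 reads (0.16, SE 0.55).

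VSIR was lower in all 3 deletion animals. It measured 97.3, 90.6 and 90.8 CPM in wildtype and 72.6, 67.8 and 64.7 CPM with the deletion, so the groups did not overlap. Of the 29 markers it was the only one without overlap, where 13.9% of all tested genes had groups apart, 7% of them with the deletion group below. Its log2 fold change of -0.44 (SE 0.09, 95% interval -0.64 to -0.24) corresponds to 0.736 times wildtype (0.64 to 0.847). It ranked 13 of 14458 by unadjusted p (0.000913), and its edgeR adjusted p was 0.683.

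The VSIR difference was nearly the same in every setting, from -0.49 to -0.40, and had a similar size in the 4 animals whose numbers begin with 15 (-0.45). Its adjusted p ranged from 0.0391 with DESeq2 after the low-count filter to 0.968 without deletion replicate 3, and DESeq2 without the filter gave 0.0791. The authors' deposited table lists a fold change of -1.35 for VSIR with an adjusted p of 0.373. VSIR did not follow the order of the other markers. Deletion replicate 1, lowest for most markers, had the highest value of the deletion animals in CPM and in TPM. Wildtype replicate 2, with the highest summed marker level, stood level with wildtype replicate 3 in CPM (90.6 and 90.8). In TPM it was at 92.9, against 92.4 and 85.6 in wildtype replicates 1 and 3. The within-group coefficient of variation of VSIR, 4.84%, was the smallest of the 29. In RefSeq, VSIR overlaps CDH23, which measured 5.06 to 8.29 CPM with overlapping groups.

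**Figure D4:**
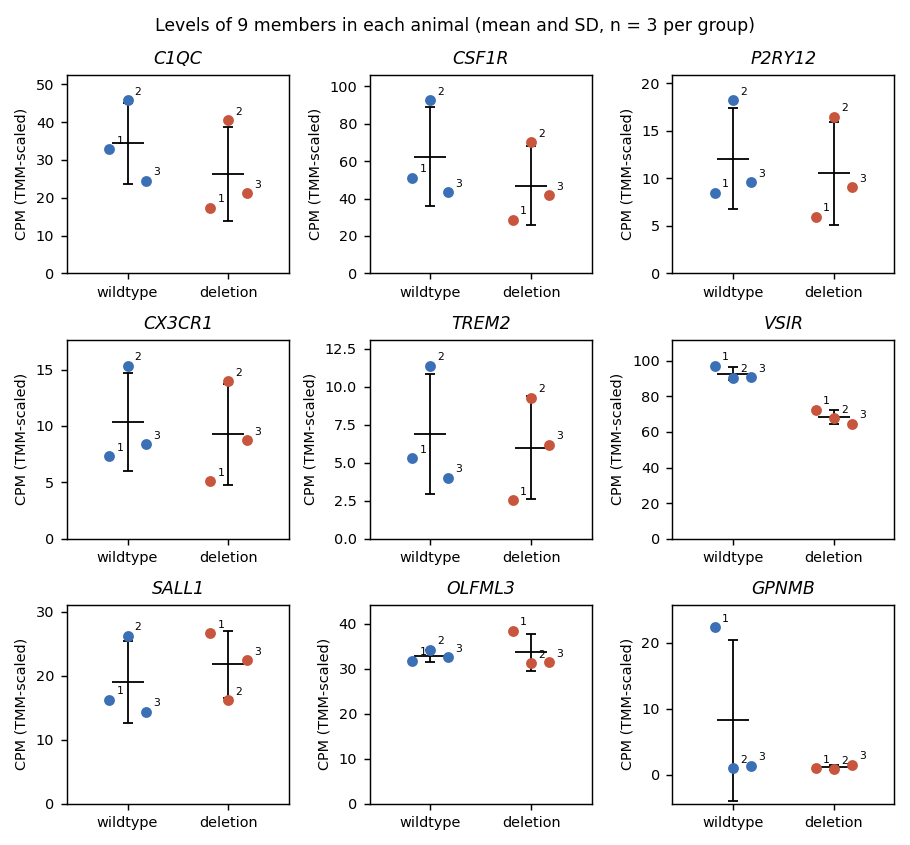
CPM of 9 markers in each animal, with numbers for the replicate, the group mean (horizontal mark) and SD (bars), n = 3 per group. C1QC, CSF1R, P2RY12, CX3CR1 and TREM2 are high in replicate 2 of both groups, VSIR is lower in all 3 deletion animals, deletion replicate 1 is highest for OLFML3 and, level with wildtype 2, for SALL1, and GPNMB is high in wildtype replicate 1 alone.

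Lysosomal markers followed the common order, with GPNMB as the exception. LAPTM5, a lysosomal membrane protein of blood-lineage cells, measured 14.1, 23.4 and 13.8 CPM in wildtype and 6.83, 17.4 and 12.7 CPM with the deletion (log2 fold change -0.48, SE 0.36, edgeR adjusted p = 0.734). CD68, a lysosomal glycoprotein of phagocytes, ranged from 1.63 to 4.08 CPM (-0.09, SE 0.36). Both were lowest in deletion replicate 1.

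GPNMB, a glycoprotein of lipid-laden phagocytes and of pigment cells, was high in 1 animal only. It held 531 reads in wildtype replicate 1 and 18 to 33 reads in the other 5 libraries, or 22.4 CPM against 0.826 to 1.55 CPM. The highest library exceeded the next 14.5-fold. A highest library at least 10 times the next occurred in 3 of 14458 tested genes (0.0207%), and in wildtype replicate 1 for this gene alone. The log2 fold change of -2.90 (SE 1.20, edgeR adjusted p = 0.683) became -0.09 without that animal and 0.02 among the 4 animals whose numbers begin with 15. In the authors' deposited table GPNMB has a fold change of -7.38 with an adjusted p of 0.0361.

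The related gene lists differed in wildtype replicate 1. The 10 tested genes of a disease-associated microglia list (among them SPP1, LPL, CTSD and LGALS3) had a median deviation of -0.01 from their 6-library means in that library. The median deviation there was 0.68 for 5 MHC class II genes and 0.32 for 6 cytokine and NF-kB genes, on the log2 scale. Each of the lists, the disease-associated one included, had 3 genes highest in that library, as had 2507 of all 14458 tested genes. The MHC class II genes were also high in deletion replicate 2, with a median deviation of 0.54. In wildtype replicate 1 the melanocyte genes TYR and MLANA had 0 reads, PMEL 2 and TYRP1 1. These pigment cell genes were looked up after the GPNMB values were seen.

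Of the remaining markers, AIF1 (IBA1), the calcium-binding protein used to stain microglia, measured 6.36, 8.84 and 9.48 CPM in wildtype and 7.01 (deletion replicate 1), 11.5 and 10.8 CPM with the deletion. It had a log2 fold change of 0.24 (SE 0.23), which was positive in every setting. DOCK8, a regulator of the actin skeleton, followed the common order at 1.38 to 3.51 CPM (-0.31, SE 0.37). LPCAT2, which makes platelet-activating factor, ranged from 2.51 to 6.71 CPM (0.13, SE 0.38). AIF1 overlaps LST1 and NCR3 in RefSeq, so its reads are uncertain in the same way.

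CD74, the invariant chain of MHC class II, was skipped by symbol but could be found through a table of gene names. It measured 251, 197 and 198 CPM in wildtype and 165, 282 and 225 CPM with the deletion (log2 fold change 0.06, SE 0.19). Its median of 174 TPM (139 to 209) was above that of VSIR, the highest marker matched by symbol. Of 5 tested MHC class II genes 2 were higher and 3 lower in mean, and 0 passed edgeR. Among them SLA-DQB1 measured 10.03, 2.37 and 5.22 CPM in wildtype and 2.90, 17.4 and 7.17 CPM with the deletion, and SLA-DMB had a log2 fold change of -0.23. CD74 and SLA-DQB1 were highest in deletion replicate 2 and wildtype replicate 1, a different pair from that of most markers.

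Among further genes of microglia, the order of animals seen in the markers was present in some lists and absent from another. Of 23 tested genes that microglia express and that were not among the markers, 15 had wildtype replicate 2 and deletion replicate 2 highest, 15 had deletion replicate 1 lowest, and 14 had both. For 9 genes of ITAM signalling these counts were 6, 6 and 5. The first list had 8 positive and 15 negative log2 fold changes (median -0.08), with TBXAS1 at 1.80 (SE 0.78) and TLR2 at -0.70 (SE 0.43) as its genes of lowest p. All 9 ITAM genes were negative (median -0.21), with VAV1 at -0.61 (SE 0.37) and PIK3CG at -0.87 (SE 0.62). None of these 32 genes passed edgeR over all genes, and 0 had an unadjusted p under 0.05 or were called by DESeq2. TBXAS1 did not share the order of the markers, at 0.0843 to 0.803 CPM in wildtype and 0.596 to 3.33 CPM with the deletion. The disease-associated microglia list did not share it either. Of its 10 tested genes 1 had wildtype replicate 2 and deletion replicate 2 highest, 1 had deletion replicate 1 lowest, and 0 had both. Its 12 genes with a row summed to between 908.5 and 1060 CPM, above the 315 to 570.3 CPM of the 31 markers. How much of that RNA came from microglia was not tested.

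**Figure D5:**
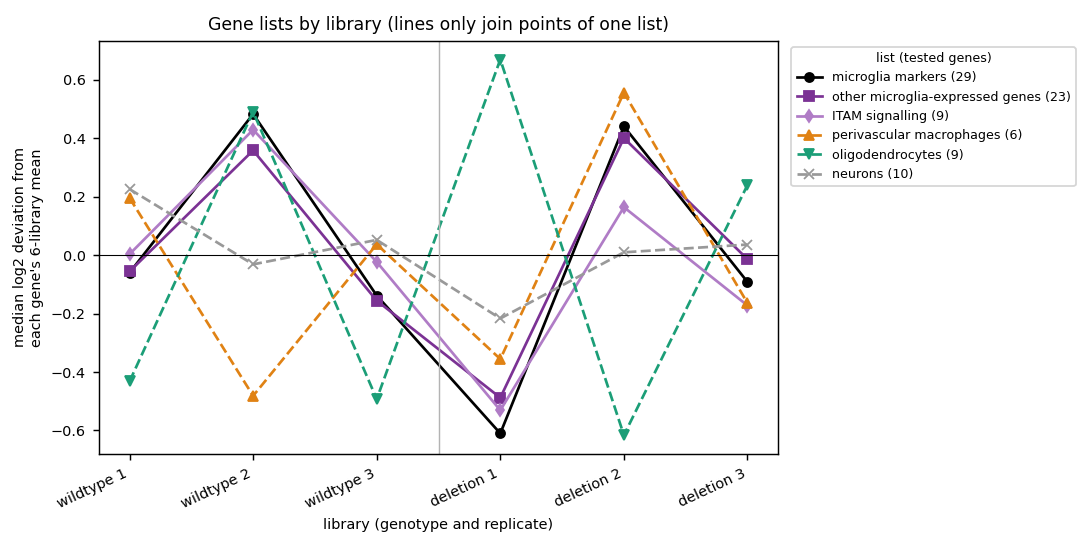
Median log2 deviation from each gene's own 6-library mean (vertical axis) for 6 gene lists in each library (horizontal axis), with the number of tested genes in the legend. The microglia markers, other microglia-expressed genes and ITAM signalling genes peak in wildtype 2 and deletion 2 and are lowest in deletion 1. Oligodendrocyte genes are highest in deletion 1 and lowest in deletion 2. The disease-associated microglia list, which did not share the marker order, is not drawn.

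Ligands of the microglial receptors had log2 fold changes between -0.17 and 0.26. IL34 stood between 57.5 and 78.3 CPM, with a log2 fold change of 0.07 (SE 0.13). CSF1 measured 10.8, 16.9 and 8.78 CPM against 13.4, 14.4 and 16.2 CPM (0.26, SE 0.23), and TGFB1 had a log2 fold change of -0.17 (SE 0.11). CX3CL1 was not analysed here. Of 7 tested ligands 5 were positive, and 0 passed edgeR or had an unadjusted p under 0.05.

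Complement genes beyond C1q had 7 positive and 2 negative values (median 0.06). C4A measured 32.4, 19.9 and 18.5 CPM against 29.7, 51.3 and 22.6 CPM (0.55, SE 0.34), and the C5a receptor C5AR1 had a log2 fold change of -0.63 (SE 0.54). In the disease-associated list 4 of 10 were positive (median -0.02). The fatty acid binding protein FABP5 measured 9.62 ± 0.71 CPM in wildtype and 12.6 ± 1.94 CPM with the deletion. It was the only 1 of these 10 genes without overlap of the groups, where 6.88% of all tested genes had the deletion group above. The receptor kinase AXL had a log2 fold change of -0.24. Of 6 tested cytokine and NF-kB genes 3 were positive (median -0.08), with NLRP3 at -0.65 and IL18 at 0.65. IL1A, TNF, IL6 and CXCL8 had at most 7 reads in any library. None of these genes passed edgeR.

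Markers of other immune cells were low and had other orders. Of 7 perivascular macrophage genes the summed level was 22.4, 14.0 and 20.6 CPM in wildtype and 18.6, 31.1 and 17.3 CPM with the deletion. LYVE1 was too low to test, and F13A1 and MS4A7 had log2 fold changes of 0.44 and -0.56. The sum was thus lowest in wildtype replicate 2, a library that was high for most microglia markers. Granulocyte and monocyte genes summed to 2.44 to 5.51 CPM, with at most 1 read of S100A12, MPO or CD177 in any library, and S100A8 had a log2 fold change of 0.68 (SE 0.45). The haemoglobin gene HBB ranged from 1.45 CPM in wildtype replicate 2 to 54.3 CPM in deletion replicate 2, which were the libraries highest in microglia markers.

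Lymphocyte genes summed to between 43.9 and 53.8 CPM, with 0 reads of CD3G in all libraries. CD8A, a T cell co-receptor, measured 0.674, 0.413 and 0.502 CPM in wildtype and 1.38, 1.24 and 0.984 CPM with the deletion (log2 fold change 1.19, SE 0.35, edgeR adjusted p = 0.683). Its groups did not overlap, as for 6.88% of all tested genes with the deletion group above. CD5, also on T cells, had a log2 fold change of 0.91 (SE 0.51). Whether T cells contribute to the other values was not tested.

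Markers of the other brain cells shared the microglial order only in part. Neither the 9 oligodendrocyte genes nor the 10 neuronal, 9 endothelial or 8 mural genes included any with wildtype replicate 2 and deletion replicate 2 highest. Astrocyte genes and genes of choroid plexus and meninges had 1 such gene each, of 9 and 8. Deletion replicate 1 was lowest for 6 of the 10 neuronal genes and for 0 of the oligodendrocyte, precursor, astrocyte, endothelial, mural, choroid and meningeal genes. Summed neuronal markers lay between 7248 and 9624 CPM and were lowest in deletion replicate 1, the library lowest in microglia markers, and summed astrocyte markers between 4864 and 6487 CPM. Precursor cell genes ranged from 651 to 1258 CPM, endothelial genes from 290 to 367 CPM, mural genes from 216 to 460.4 CPM, and genes of choroid plexus and meninges from 74.2 to 123 CPM. By log2 fold change 8 of 10 neuronal genes were negative (median -0.11), 9 of 9 oligodendrocyte (0.35), 6 of 8 precursor (0.09), 6 of 9 astrocyte (0.14), 7 of 9 endothelial (0.05), 8 of 8 mural (0.32) and 8 of 8 choroid and meningeal genes (0.33) positive, and 0 passed edgeR. An unadjusted edgeR p under 0.05 was found for 2 astrocyte, 2 choroid or meningeal, 1 neuronal and 1 precursor gene. Groups did not overlap for 2 neuronal, 2 astrocyte, 1 precursor, 1 mural and 1 choroid or meningeal gene. The shares over all tested genes were 7.23% and 13.9%. The genes of lowest p were GAD2 (-0.48) and SLC32A1 (-0.39) for neurons, OPALIN (0.43) and CNP (0.40) for oligodendrocytes, BCAS1 (0.75) and CSPG4 (-0.35) for precursors, and SOX9 (0.38) and GFAP (0.36) for astrocytes. For vessels and coverings they were FLT1 (-0.22), CLDN5 (0.20), KCNJ8 (0.48), RGS5 (0.22), KCNJ13 (0.91) and TTR (2.58), the last resting on deletion replicate 1. The part of tissue composition in the marker values was not tested.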

How the data were processed

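Per the labels' protocols, flash-frozen cortex gave total RNA, from which stranded mRNA libraries were sequenced as read pairs on a NovaSeq instrument. The aligner, counting tool, genome build and use of strand were not given in the sources used here.

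Per the file headers, the authors deposited whole-number exon read counts per gene and library, which entered every test with blanks read as 0. The authors also deposited TPM values, used for levels between genes and ratios, RPKM values, not used, and a CPM column, taken as a score because its scaling is unclear, not used. The authors' deposited table gives a signed fold change, a kind of score, with a p-value and adjusted p-value per gene. Its 6 columns of group values were not used.

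Genes were filtered with filterByExpr, scaled with TMM and compared with edgeR 4.0.16 (robust quasi-likelihood on genotype alone, run under R 4.3.3). Benjamini-Hochberg adjustment ran over all 14458 tested genes, with a threshold of 0.05. A standard error is the size of the log2 fold change divided by the root of its F value. The fit was first tried on data simulated with the spread of these libraries. Changes were placed only in well-read genes, so low-count markers and changes as small as those of most markers were not covered. DESeq2 1.42.0 and limma-voom 3.58.1 were alternatives. Library profiles used log2(CPM + 0.5). The marker set and all lists were chosen with earlier results of these data known, so no set test was run. Every marker was named, and of each further list the 2 genes of lowest p, except 1 gene that is not reported here. Animals are separate by their numbers, and replicate numbers follow accession order and pair no animals. Overlaps between genes were read from RefSeq's table for Sscrofa11.1, in which all 31 markers had an entry. Of these, 12 overlapped another gene, and 8 a protein-coding one. CSF3R, DOCK8 and LPCAT2 are among the 12, besides those named with the results.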

Additional observations from a re-analysis of the deposited data

How the results depend on the processing

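UBE3A was the 1 gene called over all genes by edgeR, and the count was 21 with DESeq2 after the low-count filter, 7 with DESeq2 without it (a setting chosen after the data were seen), 2 without a low-count filter and 2 in the animals whose numbers begin with 15. Leaving out each library gave 1 to 2. The cause was not tested. For microglia markers the count of 0 became 1 (VSIR) with DESeq2 after the filter, and was 0 in the other 14 settings, each left-out library included. DESeq2 after the filter gave no adjusted p for 5 markers. The median of the markers lay between -0.48 and 0.15 over the left-out libraries, at -0.02 in the animals beginning with 15 and at 0.00 with limma-voom and sample weights, and between -0.17 and -0.13 in the remaining settings. Each of these differed from the value of -0.16 by less than the pooled SD of the per-library medians (0.44). The log2 ratio of the summed level ranged from -0.43 to -0.06 over the left-out libraries and from -0.23 to -0.15 otherwise. Of the 29 tested markers 8 kept their sign in every setting (C1QC, CSF1R, SPI1, ITGB2, VSIR, LAPTM5, AIF1 and DOCK8). No paired analysis was possible because the replicate numbers were given in accession order and pair no animals. With the first digits of the animal number (14 or 15) as a covariate, the marker median was -0.17, with 0 markers and 1 gene called. Reads counted only where they map uniquely were not run, since total exon reads were the counts used. With 3 animals per group, the 95% interval lay within a 2-fold change for only 14 of the 29.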
